A study of Homo sapiens with 2 samples.

Results

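miR-31 was followed through both of its mature arms, hsa-miR-31-5p and hsa-miR-31-3p, in small RNA libraries of A549 cells. A549 is an established human lung adenocarcinoma cell line. The cells grew in the same serum-supplemented DMEM in both conditions and were then kept for 24 h in normoxia (20% O2) or hypoxia (1.2% O2). Each condition has 1 library, so the comparison has no replicate check and nothing was tested between the conditions. The labels do not say how many cultures went into a library. The members were found by name, 2 of the 859 mature miRNAs among 5475 listed small RNA features. They were chosen by their measured counts and their change between these same libraries, so those values are given as a description.

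A miRNA is cut from a hairpin in its primary transcript by Drosha and Dicer, which leaves a duplex with a 5p arm and a 3p arm. Usually one arm is retained in an Argonaute protein and guides it to messenger RNAs that pair with the seed, the bases near the 5′ end of the miRNA. miR-31 has a single hairpin in the human genome, inside the long non-coding RNA gene MIR31HG on the short arm of chromosome 9. It is known as a miRNA that is often raised in lung tumours, and its reported targets include HIF1AN, a hydroxylase that restrains the hypoxia-inducible factors, and LATS2, a kinase of the Hippo pathway. Neither targets nor MIR31HG RNA were analysed here.

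The deposited sequences of the arms are shown first, because every count below refers to them and because their seeds set them apart from all other listed miRNAs. They are written 5′ to 3′ with T for U. For each deposited mature sequence the capitals mark the seed, bases 2 to 8 of the mature form, and the first and the last letter are flanking bases of the hairpin. In the RefSeq entry for miR-31-5p, written with U, the capitals again mark the seed. In the RefSeq table used here, 1 of the 2 members was matched. In the hairpin the capitals mark the mature 5p arm, then the mature 3p arm. miR-21-5p and miR-22-3p, the most abundant miRNAs of the normoxic library, are shown as the sequences that miR-31 is set beside.
hsa-miR-31-5p: gaGGCAAGAtgctggcatagctg
hsa-miR-31-3p: ctGCTATGCcaacatattgccatc
RefSeq miR-31-5p: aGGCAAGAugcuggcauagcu
MIR31 hairpin: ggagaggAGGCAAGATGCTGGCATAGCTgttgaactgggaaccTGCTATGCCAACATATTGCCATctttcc
miR-21-5p: gtAGCTTATcagactgatgttgac
miR-22-3p: aaAGCTGCCagttgaagaactgtt

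In the build hg19, the deposited entry for miR-31-5p lies at chr9:21512156-21512178 and that for miR-31-3p at chr9:21512119-21512142, both on the minus strand and both within the MIR31 hairpin entry at chr9:21512114-21512184. In the GRCh38 annotation of GENCODE version 29, MIR31 is in intron 1 of the 4-exon gene MIR31HG, so neither arm is exonic. The mature arms are 21 and 22 bases long with 15 bases between them. In the hairpin as folded by RNAfold (minimum free energy -36.8 kcal/mol), 17 of the 21 bases of the 5p arm paired with the 3p arm. Of the other listed mature miRNAs, 0 shared bases 2 to 8 with either arm, so each arm was the only listed member of its seed group. Counts of either arm were therefore not split with a near-identical miRNA in the table, and the only other feature holding these sequences was the hairpin itself.

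The table held 6449337 counts in normoxia and 13115226 in hypoxia. Mature miRNAs took 4514818 (70.0%) and 8600160 (65.6%) of them, and levels are given as counts for each 1000000 mature miRNA counts (CPM). As a check of the cell type, the 6 epithelial marker miRNAs were all listed, with a summed level of 1168 CPM in normoxia and 1362 CPM in hypoxia. Most of this sum was miR-200b-3p, at 880 and 1085 CPM, and miR-141-3p (37.2 and 25.5 CPM), miR-429 (91.5 and 87.4 CPM) and miR-205-5p (2.66 and 1.74 CPM) were lower in hypoxia. Blood cell markers summed to 19.9 and 23.4 CPM with 4 of 6 listed, endothelial markers to 222 and 221 CPM, and muscle markers to 0 and 2.44 CPM. Their part in the results for miR-31 was not tested.

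miR-31-5p was among the most abundant miRNAs of A549 cells in both libraries, and both arms of miR-31 stood higher in hypoxia than in normoxia. miR-31-5p had 91197 counts in normoxia and 247082 in hypoxia. In normoxia its level was 20199 CPM, with a 95% interval of 20070 to 20330. In hypoxia it was 28730 CPM (28618 to 28842). This is 2.02% and 2.87% of the mature counts. The intervals of the libraries do not overlap. The ratio of hypoxia over normoxia was 1.42 (95% interval 1.41 to 1.43), a log2 ratio of 0.51. The intervals cover counting error only, and reads amplified by PCR without molecular identifiers are not independent molecules. In bulk RNA, more cells that hold miR-31 and more copies per cell cannot be told apart.

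miR-31-3p, the less abundant arm, had 8855 counts in normoxia and 22890 in hypoxia. Its level was 1961 CPM (1921 to 2003) in normoxia and 2662 CPM (2627 to 2696) in hypoxia, or 0.196% and 0.266% of the mature counts. It was thus higher in the hypoxic library as well, again with intervals that do not overlap. The ratio was 1.36 (1.32 to 1.39), a log2 ratio of 0.44. Both arms were far above the level that 3 counts would give, 0.664 CPM in normoxia and 0.349 CPM in hypoxia.

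**Figure D1:**
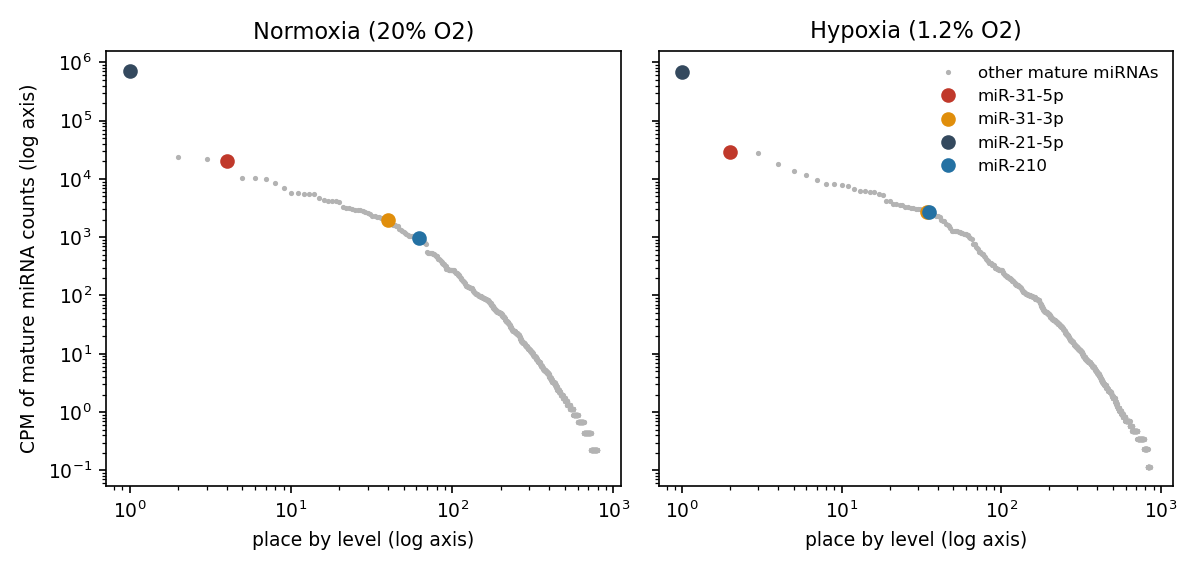
Level in CPM of every mature miRNA with a count in that library against its place by level, both on logarithmic axes, in the normoxic library (left) and the hypoxic library (right), with miR-31-5p, miR-31-3p, miR-21-5p and miR-210 in colour. miR-31-5p goes from 20199 to 28730 CPM while miR-31-3p goes from 1961 to 2662 CPM, where the point of miR-210 covers most of it.

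Ranked by level, miR-31-5p moved from place 4 of 859 in normoxia to place 2 in hypoxia. In normoxia it stood below miR-21-5p at 722090 CPM, miR-22-3p at 23367 CPM and miR-23b-3p at 21910 CPM. The next miRNA below it, miR-30a-5p at 10527 CPM, was well apart from it. In hypoxia only miR-21-5p stood above it, at 683588 CPM, and miR-23b-3p came next below at 27306 CPM. The interval of miR-31-5p overlapped with that of neither neighbour in either library. miR-31-3p moved from place 40 to place 34. It did not differ beyond counting error from miR-365a-3p, the next above it in normoxia at 2014 CPM. The same held for miR-210, the next below it in hypoxia at 2657 CPM.

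The shares, though not these places, depend on the denominator, of which miR-21-5p made up 72.2% (normoxia) and 68.4% (hypoxia). Without miR-21-5p in the denominator, miR-31-5p took 7.27% in normoxia and 9.08% in hypoxia. miR-31-3p took 0.706% and 0.841% on that scale. With all small RNA counts of the table as the denominator, miR-31-5p took 1.41% and 1.88%, and miR-31-3p 0.137% and 0.175%. Both arms were higher in hypoxia with each of these denominators.

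In percentage points of the mature counts, miR-31-5p gained more than any other listed miRNA. Its share was 0.853 points higher in hypoxia. In all, 517 miRNAs gained 5.54 points, and miR-31-5p made up 15.4% of this sum. The next gains were those of miR-23b-3p with 0.540 points, miR-19b-3p with 0.343 points, miR-374b-5p with 0.335 points and miR-221-3p with 0.333 points. On the other side, the share of miR-21-5p changed by -3.85 points, and that of miR-22-3p by -0.509 points. A gain in points weighs abundant miRNAs more heavily than a ratio does, and by ratio miR-31-5p did not stand first.

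**Figure D2:**
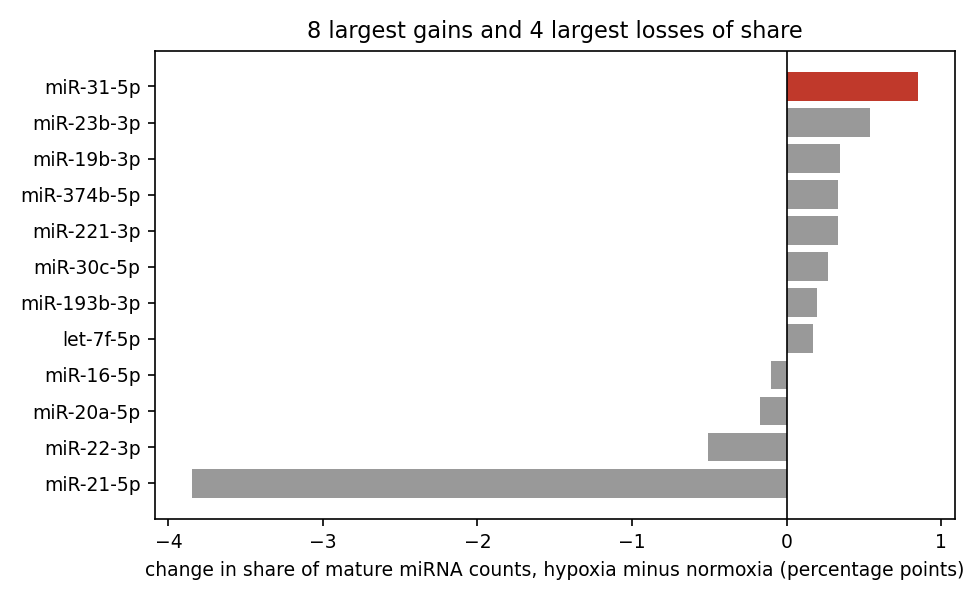
Change in the share of mature miRNA counts from normoxia to hypoxia, in percentage points, for the 8 miRNAs with the largest gains and the 4 with the largest losses (1 library per condition, bars from 0). miR-31-5p stands first among the gains at 0.853 points, and miR-21-5p has the largest loss at -3.85 points.

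By ratio, neither arm of miR-31 passed the size rule, which asks for a log2 ratio of 0.9 or more, upward or downward, at a mean log2 CPM above 3. Of the 339 miRNAs above that expression filter, 12 passed upward (3.54%) and 11 downward (3.24%). Thus 52.2% of those past the rule were higher, against 34.8% with TMM scaling and 22.7% with miR-21-5p left out of the total. Of the 62 miRNAs with a mean level of at least 1000 CPM, as both arms of miR-31 have, 3 passed upward (4.84%). A log2 ratio above 0 was common, with 202 of 339 (59.6%) and 42 of 62 (67.7%), so the direction alone does not set miR-31 apart. With TMM scaling, 161 of the 339 were above 0.

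The log2 ratio of miR-31-5p was 53rd from the highest of the 339, with 84.6% of the others below it, and that of miR-31-3p was 67th, with 80.5% below. Among the 62 abundant miRNAs they were 11th and 16th. The median of the 339 was 0.08, with quartiles of -0.22 and 0.38, so both arms stood above the upper quartile. Among the abundant miRNAs the closest log2 ratios to that of miR-31-5p, with 2 libraries to compare, were those of let-7f-5p (0.51), miR-224-5p (0.47), miR-30d-5p (0.46), miR-193b-3p (0.45) and miR-31-3p itself. For miR-31-3p, among all 339, they were those of miR-193b-3p, miR-106b-3p (0.43), miR-7-1-3p (0.43), let-7e-3p (0.45) and miR-769-5p (0.45).

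**Figure D3:**
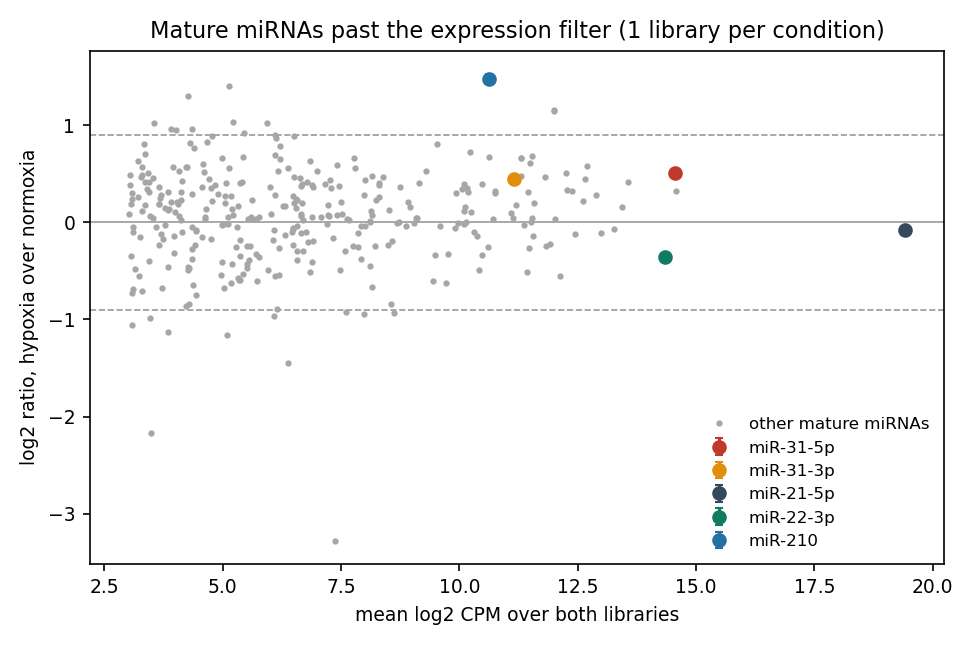
Log2 ratio of hypoxia over normoxia against mean log2 CPM for the mature miRNAs above the expression filter, scaled to mature totals, with the size rule of 0.9 drawn as broken lines and 95% counting intervals on the coloured points. miR-31-5p (0.51) and miR-31-3p (0.44) lie in the upper part of the abundant miRNAs but inside the lines, and miR-210 (1.48) lies outside.

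The scaling set how large the ratios were, but both stayed above 0 under each of the 6 scalings tried. miR-31-5p had a log2 ratio of 0.39 with TMM, 0.44 with DESeq2 size factors and 0.32 with miR-21-5p left out of the total. For miR-31-3p these were 0.33, 0.37 and 0.25. The median of all miRNAs above the filter moved with them, by -0.11 with TMM and by -0.19 without miR-21-5p. Relative to that median, miR-31-5p stood at 0.43 and miR-31-3p at 0.36.

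**Figure D4:**
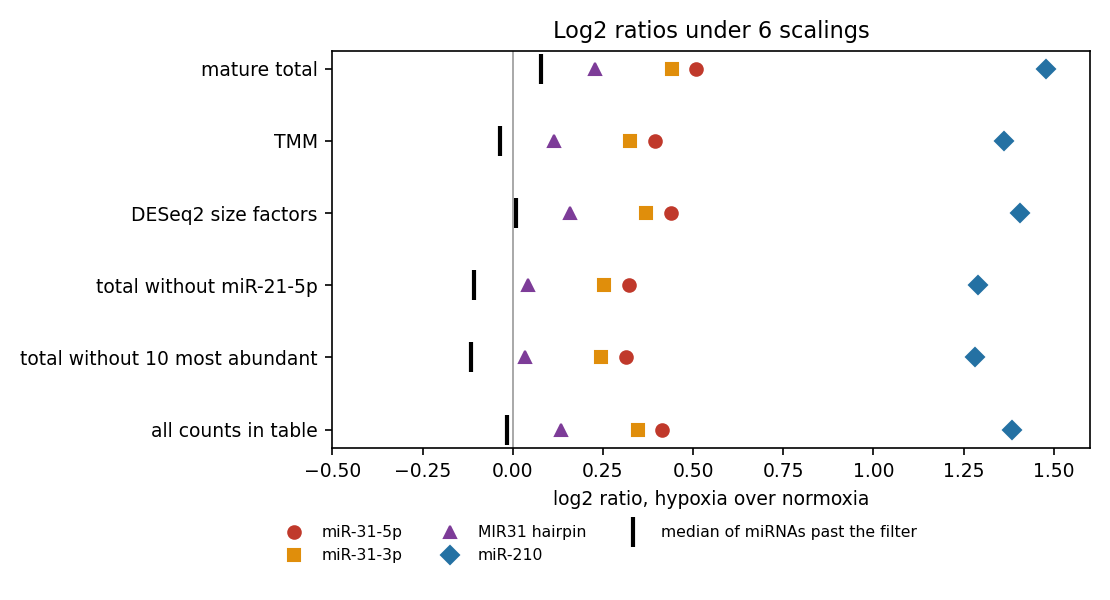
Log2 ratio of hypoxia over normoxia for both arms of miR-31, the MIR31 hairpin entry and miR-210 under 6 scalings, with a bar for the median of the 339 miRNAs above the filter. All symbols of a line shift together, both arms stay above 0 and above the median, and miR-210 stays above both.

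Ratios between miRNAs of the same library need no scaling. For each 100 counts of miR-21-5p there were 2.80 counts of miR-31-5p in normoxia and 4.20 in hypoxia, a log2 change of 0.59 (counting SE 0.0057). For each count of miR-22-3p there were 0.864 and 1.57, a log2 change of 0.86 (counting SE 0.0080). miR-31-5p thus passed miR-22-3p, a miRNA widely expressed in many tissues, between the libraries. Against miR-23b-3p, which also took a larger share in hypoxia, it went from 0.922 to 1.05. Of the 10 other miRNAs among the most abundant of either library, miR-31-5p was higher in hypoxia relative to 9. The exception was miR-30c-5p, with 3.70 counts of miR-31-5p for each of its counts in normoxia and 3.52 in hypoxia. miR-31-3p was likewise higher relative to 9 of these 10.

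miR-210 is the miRNA best known to be induced through the hypoxia-inducible factors, and it moved more than miR-31. It had 4307 counts in normoxia and 22849 in hypoxia, or 954 and 2657 CPM. The ratio was 2.79 (2.70 to 2.88), a log2 ratio of 1.48. For each count of miR-210 there were 21.2 counts of miR-31-5p in normoxia and 10.8 in hypoxia. miR-31-5p thus remained the more abundant of the pair in both libraries. miR-31-3p, with 2.06 and 1.00 counts for each count of miR-210, went from a higher level than miR-210 to the same level.

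miRNAs tied to the hypoxia-inducible factor pathway were found on both sides of 0. This list holds 13 miRNAs, miR-31-5p among them. Of these, 12 were above the expression filter, with 5 higher and 7 lower in hypoxia, and a median log2 ratio of -0.10. Of all 339, 59.6% were higher, with a median of 0.08. Past the size rule were miR-210 upward and miR-424-5p, which is reported to act on a ligase scaffold for the factors, downward (-0.92), beside 3.54% upward and 3.24% downward of all 339. miR-135b-5p, which like miR-31 is reported to target HIF1AN, had a log2 ratio of 0.03. miR-107 had -0.24, miR-20a-5p -0.55, miR-17-5p -0.14 and miR-20b-5p 0.21. miR-155-5p was below the filter, with 7 and 26 counts. Both arms of miR-31 were thus above the median of the list, but miR-31 was chosen for its change and the list was not drawn independently of these data.

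Within the hairpin, the 5p arm dominated in both libraries. It made up 91.1% of the counts of both arms in normoxia (91.0 to 91.3) and 91.5% in hypoxia (91.4 to 91.6), a change of 0.372 points. In counts, there were 10.3 counts of the 5p arm for each count of the 3p arm in normoxia and 10.8 in hypoxia. The log2 ratio of the 5p arm exceeded that of the 3p arm by 0.068 (counting SE 0.019). This is a small difference between the libraries, beyond counting error. How much it would vary between libraries of the same condition is not known. Scaling does not enter it, since both arms are read from the same libraries.

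The arms of miR-31 differed less in log2 ratio than those of most hairpins. Of 72 other hairpins with arms paired by name, both above the expression filter, 67 had a larger difference between the arms. The other 5 had a smaller one (miR-21, let-7a, miR-140, miR-9 and miR-331). The median difference, without sign, was 0.42 and the largest was 1.53. Many of those arms have low counts. Among the 22 others with a counting SE of at most 0.1, 3 had a smaller difference, and the median was 0.36. The widest differences were those of miR-221, with log2 ratios of -0.38 for the 5p arm and 1.14 for the 3p arm, then miR-744 and let-7g.

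Both arms were higher in hypoxia in 25 of the 72 other hairpins (34.7%), both were lower in 12, and the arms went in opposite directions in 35. In 2 others both arms had a log2 ratio of at least 0.44. In miR-589 these were 0.46 and 0.60, and in miR-132 they were 0.63 and 0.89, at far lower counts than those of miR-31.

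**Figure D5:**
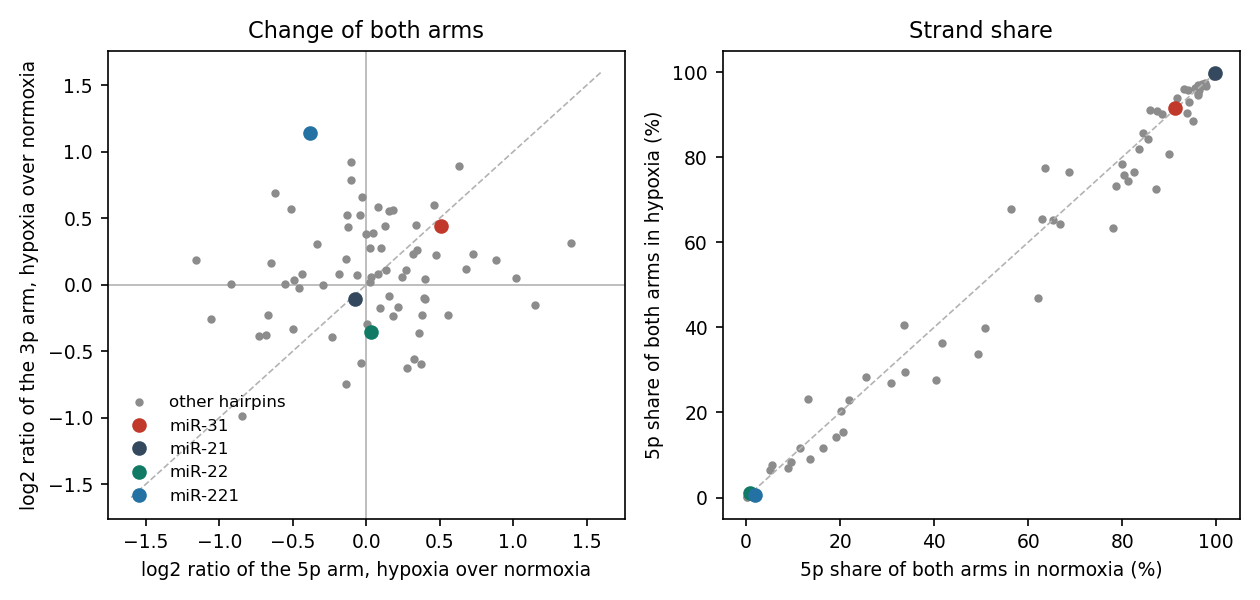
The 73 hairpins with arms paired by name, both above the expression filter, are shown. The left panel plots the log2 ratio of hypoxia over normoxia of the 3p arm against that of the 5p arm. The right panel plots the 5p share of both arms in hypoxia against that in normoxia (percent). Broken lines mark where both axes are equal. miR-31 lies close to the line in both panels (log2 ratios of 0.51 and 0.44, shares of 91.1% and 91.5%), and miR-221 lies far from it on the left (-0.38 and 1.14).

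The share of the 5p arm itself was not unusual among hairpins. Of 46 other hairpins led by the 5p arm, 25 had a higher 5p share than miR-31, and the median of the 46 was 92.4%. Over all 72 others, those led by the 3p arm included, the median was 78.0%. The nearest in 5p share were let-7g (95.1% in normoxia and 88.6% in hypoxia), miR-30e (93.8% and 90.4%) and miR-93 (91.6% and 93.9%). All 3 changed by more than miR-31 did, and 51 of the 72 others changed by more points than miR-31. Both arms of miR-31 were chosen by their counts, so the level of its lesser arm is a description. The lesser arm is the one with fewer counts over both libraries together. miR-31-3p, at a mean of 2311 CPM, was the most abundant lesser arm of the 73 hairpins, ahead of let-7i-5p at 1442 CPM, miR-21-3p at 1266 CPM and miR-151a-3p at 1102 CPM.

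The comparison with miR-21 and miR-22 shows how differently the most abundant hairpins divided between their arms. miR-21 had 3260103 counts of the 5p arm and 5919 of the 3p arm in normoxia, and 5878970 and 10497 in hypoxia. Its 5p arm made up 99.8% in normoxia, with 551 counts for each count of the 3p arm. miR-22 was led by the 3p arm, with 105496 counts against 881 of the 5p arm in normoxia and 157214 against 1717 in hypoxia. Its log2 ratios were 0.03 for the 5p arm and -0.35 for the 3p arm. miR-31 was thus the least one-sided of these 3 hairpins. For each count of miR-21-3p there were 1.50 counts of miR-31-3p in normoxia and 2.18 in hypoxia, although miR-21-5p was far above miR-31-5p.

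The table also lists the MIR31 hairpin as a feature of its own, which was not used to choose the arms. The hairpin entry had 111 counts in normoxia and 248 in hypoxia, or 24.6 and 28.8 CPM. The ratio was 1.17 (0.934 to 1.48), a log2 ratio of 0.23. The log2 ratio was 0.11 with TMM, 0.16 with DESeq2 size factors, 0.13 with all counts as the total, 0.042 without miR-21-5p in the total and 0.034 without the 10 most abundant miRNAs. The interval includes 1, so a difference was not detectable at this depth. The sources used here do not give the rule that divided reads between hairpin and mature entries.

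For each 1000 counts of both arms there were 1.11 hairpin counts in normoxia (0.913 to 1.34) and 0.919 in hypoxia (0.808 to 1.04), and these intervals overlap. The log2 ratio of the hairpin minus that of the arms was -0.27 (counting SE 0.165). In hairpin counts relative to arm counts, the place of miR-31 depended on the hairpins it was set beside. It was near the middle only of those with abundant arms. Of 27 others with at least 10000 arm counts in normoxia, a set chosen after the values were seen, 14 had more hairpin counts for each 1000 arm counts in normoxia and 16 in hypoxia. Lower than miR-31 in both libraries were, for example, miR-21 with 0.454 and 0.470 and miR-22 with 0.085 and 0.13. Over all 105 others with a listed hairpin entry, 73 were higher in normoxia and 85 in hypoxia, and hairpins with fewer than 3 counts are not listed. Of 12 others with at least 100 hairpin counts over both libraries, 11 were higher than miR-31 in normoxia and 11 in hypoxia. That set leaves out hairpins with few hairpin counts.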

How the data were processed

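Total RNA was ligated, reverse transcribed, amplified by PCR and size-selected with a small RNA kit for the SOLiD platform. The table deposited by the authors holds raw, unnormalized counts for each small RNA feature, with coordinates in hg19 per the submitters' processing notes. The aligner, the counter and the miRNA annotation version were not given in the sources used here. No listed feature had fewer than 3 counts in the libraries together, and unlisted ones may have had fewer. With 1 count for each mature miRNA, 5′ ends and lengths of the reads of miR-31 could not be examined.

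Counts were scaled to the total on mature miRNAs. Log2 ratios used a prior count of 2, and ratios of counts (folds) used none. Shares have exact Clopper-Pearson intervals and ratios exact conditional binomial intervals, both at 95% and for counting error only. Alternatives were TMM (edgeR version 4.0.16), DESeq2 size factors (version 1.42.0, R version 4.3.3), other totals, other filters and thinning of the deeper library. The calculation was tested on simulated counts that varied by counting error only. It therefore cannot show how well the intervals hold with amplified reads or spread between libraries. Arms were paired by name, so hairpins whose arms differ in name beyond the arm itself were not included. GENCODE version 29 gave the place of the hairpin studied here within its long non-coding RNA gene. Folding used RNAfold version 2.7.2, and the intervals came from scipy version 1.17.1 in Python version 3.11.15. Of 687 mature miRNAs matched by name in RefSeq, 653 had a deposited sequence equal to the RefSeq one plus 1 base on each side.

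The members, the lists (hypoxia-inducible factor pathway, miRNAs reported in hypoxia, miRNAs reported as raised in lung cancer, cell type markers) and the comparisons were chosen with earlier results of these data known. The rule for named miRNAs took both arms of miR-31, the 10 most abundant miRNAs of either library, miR-210, the 5 closest in log2 ratio to each arm, both arms of miR-21 and miR-22, list members, seed sharers, chromosome neighbours, the 3 hairpins nearest in 5p share and the 3 with the widest arm differences. miRNAs named for their gain in points, for a small arm difference, for both arms as high as those of miR-31 or as a lesser arm or neighbour in level were chosen after their values were seen.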

Additional observations from a re-analysis of the deposited data

How the results depend on the processing

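The log2 ratio of miR-31-5p (0.51) was 0.39 with TMM, 0.44 with DESeq2 size factors, 0.32 without miR-21-5p in the total, 0.31 without the 10 most abundant miRNAs and 0.41 with all counts as the total. That of miR-31-3p (0.44) was 0.33, 0.37, 0.25, 0.24 and 0.35 in the same order. With all counts as the denominator, the shares of miR-31-5p were 1.41% and 1.88% and those of miR-31-3p 0.137% and 0.175%. Without miR-21-5p in it they were 7.27% and 9.08%, and 0.706% and 0.841%. Past the size rule were 5 miRNAs upward and 17 downward without miR-21-5p in the total, 5 and 18 without the 10 most abundant, and 113 and 64 with no filter on low counts. At a log2 threshold of 1, 6 passed downward. With a mean of at least 1000 CPM, an alternative added after seeing the data, 83.6% and 75.4% of the other miRNAs were below miR-31-5p and miR-31-3p. With TMM, without miR-21-5p and without the 10 most abundant, the list medians were -0.22, -0.29 and -0.30 for the hypoxia-inducible factor pathway, and 0.20, 0.13 and 0.12 for the miRNAs reported in hypoxia. The lung cancer list (0.04) reversed to -0.073 with TMM, -0.029 with DESeq2 size factors, -0.15 without miR-21-5p and -0.15 without the 10 most abundant. These shifts follow from the other totals, filters and thresholds themselves. The hairpin ratio under other scalings and the restriction of the arm comparison by counting SE were also added after seeing the data. No library could be left out. No paired analysis was possible because normoxia and hypoxia have 1 library each. With 111 hairpin counts in normoxia, depth limits what the hairpin entry can show.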

Other observations

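Within 10 Mb of MIR31 on chromosome 9 (hg19), the table listed 7 other mature miRNAs, all at low counts. Of these, 4 had a log2 ratio above 0, and the median was 0.03. The nearest were the arms of miR-491, at 796 kb. miR-491-5p had 47 and 177 counts in normoxia and hypoxia, a ratio of 1.98 (1.43 to 2.79) and a log2 ratio of 0.96. miR-4473, at 1101 kb, had 35 and 110 counts, a ratio of 1.65 (1.12 to 2.49) and a log2 ratio of 0.70. miR-491-3p had 8 and 22 counts, miR-4474-3p 15 and 28, miR-876-5p 9 and 15, miR-873-3p 4 and 7 and miR-873-5p 1 and 2. Among 269 miRNAs with 20 to 300 counts, 62.1% had a log2 ratio above 0, with a median of 0.19. Both arms of miR-873 fall below that range of counts, and the neighbour median of 0.03 is the value of miR-873-5p.

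Both arms of miR-31 were compared with 2 further lists. Of 13 miRNAs reported in hypoxia, all above the filter, 7 were higher and 6 lower, with a median log2 ratio of 0.32, and 1 passed the size rule upward. Of 14 listed miRNAs reported as raised in lung cancer, miR-31-5p among them, 13 were above the filter. Of these, 8 were higher and 5 lower, with a median of 0.04 that turned negative under other scalings. The size rule was passed upward by miR-210 and by miR-221-3p (1.14), a miRNA known to repress the cell cycle inhibitor CDKN1B. Beside these counts, 202 of all 339 miRNAs above the filter were higher (59.6%), with a median of 0.08, and 3.54% passed the size rule upward and 3.24% downward. Among other marker lists, fibroblast or smooth muscle markers summed to 239 CPM in normoxia and 236 in hypoxia, neural markers to 52.1 and 53.1, the liver marker to 0.886 and 0.465 and pluripotent markers to 0 and 0.349.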
